A study of Mus musculus with 9 samples.

Results

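Hedgehog signalling was described here through 9 genes measured in sorted mouse prostate cells: the ligands Shh, Ihh and Dhh, the receptor Ptch1, the signal transducer Smo, the transcription factors Gli1, Gli2 and Gli3, and the inhibitor Hhip. All 16 probes whose gene name in the scanner files is one of these 9 were taken, dim ones included, of 41174 probes for 27666 gene or transcript names in all. Hedgehog ligands are secreted proteins that bind Patched receptors. Without ligand, Ptch1 holds back the membrane protein Smoothened (Smo); ligand binding releases it, and the GLI proteins then change from repressors to activators of their target genes, Ptch1, Gli1 and Hhip among them. In the prostate the pathway is known from development, where ligand from the epithelium acts on the surrounding mesenchyme.

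The study asked how gene expression differs between 2 fractions of primary prostate cells of BL6 mice, separated by fluorescence-activated cell sorting. Both fractions were negative for lineage markers (Lin-). The marker-positive fraction, named stem cells in the labels, carried CD44, CD133, Sca-1 and CD117 and was measured on 3 arrays, and the marker-negative fraction, named non-stem cells, lacked all 4 proteins and was measured on 6 arrays. No treatment, age or genotype beyond the strain is given, and nothing says whether the replicates come from different animals. The p-values below cover only the variation among these hybridisations, some of which may be technical.

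On each array the amplified sample RNA carried the dye Cy5 and a commercial pooled mouse RNA, the same on all arrays, carried Cy3. A value is therefore a log2 ratio of sample to reference for 1 probe, and levels of different probes cannot be set against each other. A probe counts as above background where the scanner software marks more than 50% of its spots as well above background in Cy5. The share of probes above background was 67.3%, 69.3% and 45.5% on the 3 marker-positive arrays, the last being replicate 3, and 47.5% to 69.5% on the others. Marker-positive replicate 3 stood apart: over all tested probes it correlated at 0.61 and 0.58 with the other arrays of its group, which correlated with each other at 0.92, and at 0.68 with marker-negative replicates 4 and 6. The values of the Hedgehog genes, and counts of calls in the lists, are given with it and, where they rest on it, without it. Of the genes for the sort markers, Ly6a (Sca-1) was higher in marker-positive cells by 3.93 on the log2 scale (limma adjusted p = 0.0166) and Cd44 by 2.07 (adjusted p = 0.0198), with 1.64 (adjusted p = 0.0841) and 0.04 for its other probes. Kit (CD117) differed by 3.44 (limma adjusted p = 0.0585) and Prom1 (CD133) by -0.46 (adjusted p = 0.779), so neither passed. A second Prom1 probe gave -0.89 (adjusted p = 0.275). Without marker-positive replicate 3, Kit gave 2.59 (adjusted p = 0.0924) and the first Prom1 probe 0.38 (adjusted p = 0.743). Luminal epithelial genes of the prostate were present, with 14 or 15 of 15 above background on every array except marker-positive replicate 3, which had 8.

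The stretches before the start of 4 genes are shown because the results below turn on these genes. Gli3 and Smo varied together from array to array, and Ptch1 was the tested gene whose groups did not overlap. Hhip was above background in marker-positive cells only, as were Shh and Gli2. Each stretch is the 250 bases before the gene's start in RefSeq's GRCm38.p6 annotation, on the gene's own strand. Matches to CCACCC (or its reverse complement GGGTGG) are in capitals. CCACCC is the core of the GLI binding consensus GACCACCCA, and every match to the consensus overlaps a match to the core.
Gli3: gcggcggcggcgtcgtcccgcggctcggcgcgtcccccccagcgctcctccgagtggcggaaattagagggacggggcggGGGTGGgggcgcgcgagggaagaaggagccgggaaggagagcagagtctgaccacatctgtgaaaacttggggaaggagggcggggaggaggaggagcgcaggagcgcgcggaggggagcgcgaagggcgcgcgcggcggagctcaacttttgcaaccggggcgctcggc
Smo: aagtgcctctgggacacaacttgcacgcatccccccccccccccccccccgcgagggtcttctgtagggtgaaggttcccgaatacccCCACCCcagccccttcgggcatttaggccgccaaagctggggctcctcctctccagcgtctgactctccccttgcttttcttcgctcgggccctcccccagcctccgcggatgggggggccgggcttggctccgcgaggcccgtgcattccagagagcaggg
Ptch1: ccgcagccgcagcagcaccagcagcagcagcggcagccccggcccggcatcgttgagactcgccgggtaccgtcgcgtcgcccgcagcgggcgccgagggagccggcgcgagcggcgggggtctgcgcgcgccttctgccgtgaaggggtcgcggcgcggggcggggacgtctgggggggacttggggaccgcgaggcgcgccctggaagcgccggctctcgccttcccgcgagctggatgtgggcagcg
Hhip: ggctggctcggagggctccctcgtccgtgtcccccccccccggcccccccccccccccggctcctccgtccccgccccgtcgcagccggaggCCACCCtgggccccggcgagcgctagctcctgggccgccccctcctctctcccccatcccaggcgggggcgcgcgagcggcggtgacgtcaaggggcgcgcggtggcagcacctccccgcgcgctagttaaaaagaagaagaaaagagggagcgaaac
Gli3 lies at chr13:15463473-15463722 on the plus strand, Smo at chr6:29735247-29735496 on the plus strand, Ptch1 at chr13:63565736-63565985 on the minus strand and Hhip at chr8:80058009-80058258 on the minus strand. Of the 9 genes, 7 had an entry, and Shh and Gli1 had none. On either strand, the consensus GACCACCCA was in 0 of these 7 stretches and in 0.225% of all 32851 stretches of this length, and GACCNCCCA was in 0 of 7 and 0.868%. The core CCACCC was in 6 of 7 against 28.1% of all, the exception being Ptch1. These 7 stretches hold 59.6% to 78.4% G and C. That share was not taken for all stretches, so the comparison of CCACCC is not matched for it and cannot show whether the core is enriched. The motifs were chosen after the array values were seen, and a match to such short letters is a description, not a binding site.

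No gene of the 9 passed the test between the fractions. A gene was tested when 1 of its probes was above background on at least 3 arrays. Ihh, Dhh, Gli1, Gli3, Ptch1 and Smo were, each through its brightest such probe, while Shh, Gli2 and Hhip had none. Of these 6 genes, 0 were called at an adjusted p under 0.05 (limma, Benjamini-Hochberg over all tested probes), where 2.83% of all 19848 tested genes were called in either direction, 1.4% as higher and 1.43% as lower in marker-positive cells. At an unadjusted p under 0.05 there were 3, Gli3, Ptch1 and Smo, or 50% of the 6 against 19.1% of all tested genes. Differences were positive, that is higher in marker-positive cells, for 5 of the 6, with a median of 0.49 against -0.01 over all tested genes. The authors' deposited table, turned to the same direction, lists 1 probe of the 16 at an adjusted p under 0.05, the brighter Gli3 probe (2.24, adjusted p = 0.0307).

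**Figure D1:**
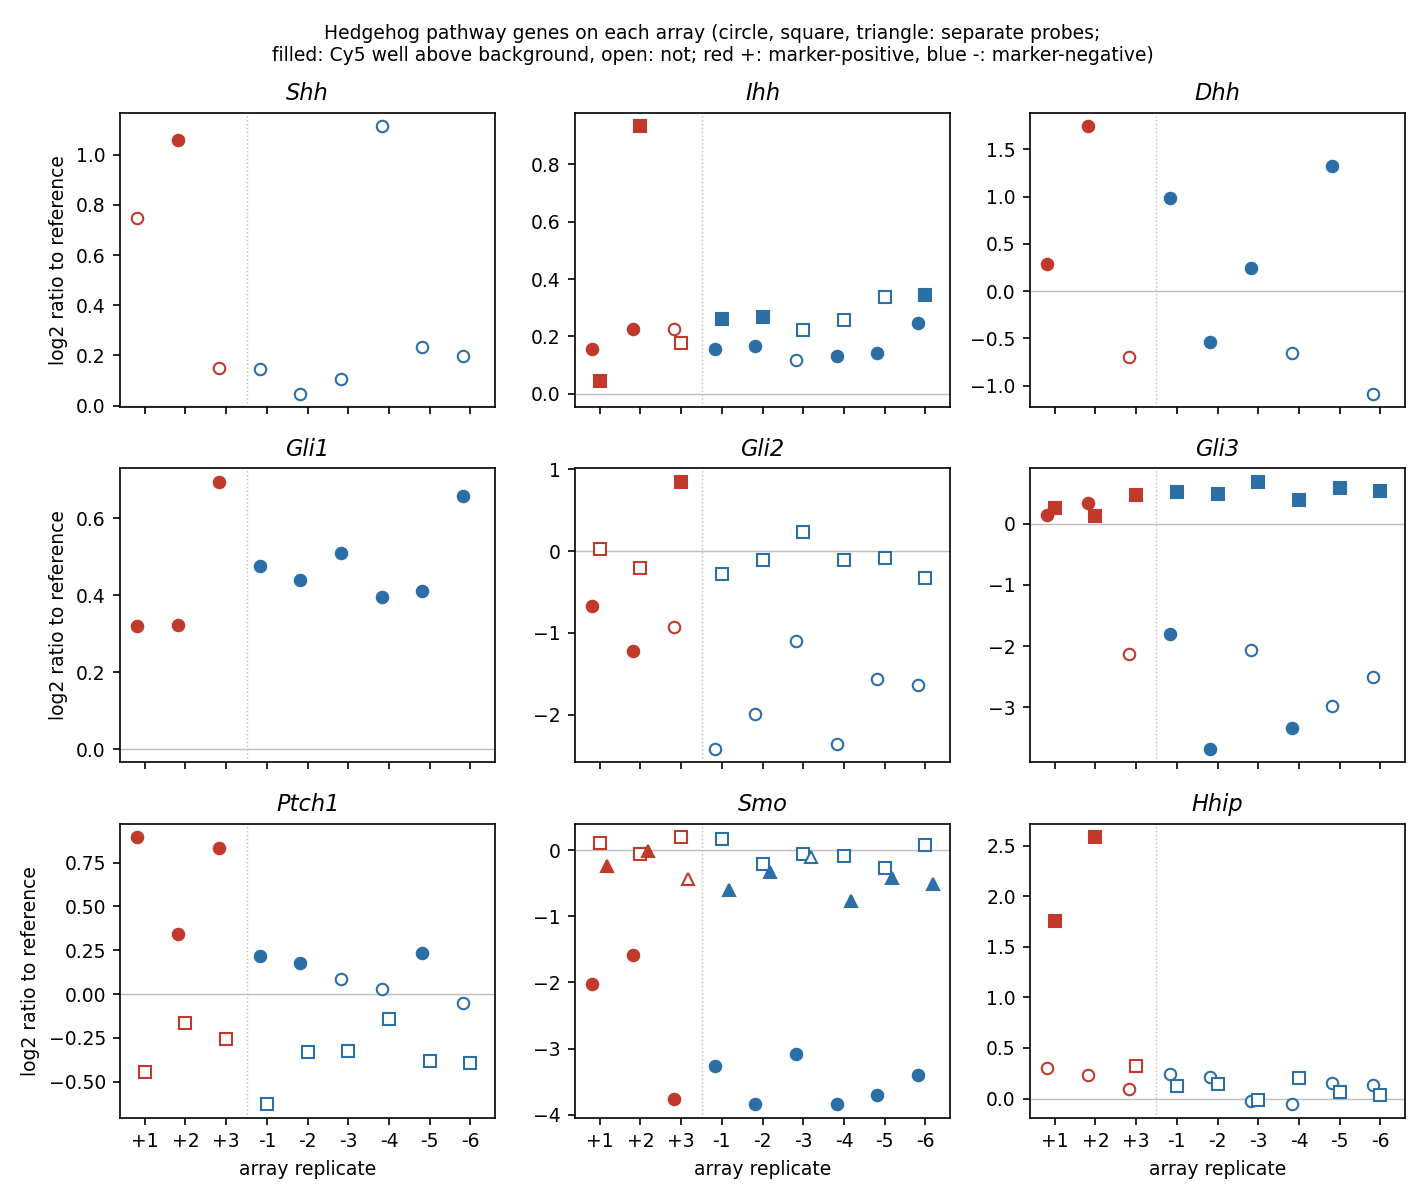
Log2 ratio to the common reference (vertical axis, scaled per gene) for every probe of the 9 genes on each of the 9 arrays, with marker-positive arrays in red and marker-negative arrays in blue. Filled symbols are probes above background in Cy5 on that array; marker-positive replicates 1 and 2 stand above the marker-negative arrays with 1 probe each of Hhip, Smo and Gli3, and replicate 3 does not for those of Smo and Gli3.

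Of the 3 ligands, Ihh and Dhh did not pass the test and Shh was too dim to be tested. Shh, the ligand best known from prostate development, has 1 probe in 10 spots (chr5:27489898-27489957 of build mm7, the build of all probe positions here). It was above background on 1 array, marker-positive replicate 2. Its log2 ratios were 0.75, 1.06 and 0.15 on the marker-positive arrays, and had a lowest value of 0.05, a median of 0.17 and a highest value of 1.11 on the marker-negative ones. The highest of all was thus a marker-negative array, replicate 4, where 50% of the spots were above background, and the groups overlapped. The mean Cy5 reading in marker-positive cells was 1.28-fold the background in marker-negative cells. Such a ratio sets the mean over all marker-positive arrays against, per marker-negative array, the lowest signal among probes above background or the probe's own, whichever is higher. It is open to dye bias since no dyes were swapped. It is a lower bound only where every array of the higher group was above background, and then only of the measured readings. A probe not above background can read higher than that lowest signal, so the ratio is no strict bound on expression. For Shh it is not even a bound of the readings, with Cy5 intensities of 175 on marker-positive replicate 2 and 169 on marker-negative replicate 4. Without marker-positive replicate 3 the Shh ratio was 1.54-fold.

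Ihh, a ligand known from bone and gut, was close to the reference on all arrays with its 10-spot probe, which is dim. Its 10-spot probe (chr1:75185454-75185513) gave 0.15, 0.23 and 0.22 in marker-positive cells against 0.12 to 0.25 with a median of 0.15 in marker-negative cells. The difference was 0.04 (SE 0.12, 95% confidence interval -0.23 to 0.32, limma adjusted p = 0.899). This probe was not above background on replicate 3 of either group. Its Cy5 intensities were 99.8 to 208, with an added offset that pulls ratios of dim probes toward the reference. A second, single-spot probe (chr1:75187527-75187586) gave 0.10 (adjusted p = 0.831), with 1 high value of 0.93 on marker-positive replicate 2.

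Dhh, a ligand known from Schwann cells and the testis, was the ligand that varied most between arrays. Its probe (chr15:98878292-98878351) gave 0.29, 1.74 and -0.70 on the marker-positive arrays. On the marker-negative arrays it ran from -1.08 to 1.32 with a median of -0.14. The lowest ratios came from arrays where the Dhh probe did not exceed background in Cy5. These were -0.70 (replicate 3) in marker-positive cells, and -0.66 (replicate 4) and -1.08 (replicate 6) in marker-negative cells. The range, SDs and correlations given here rest in part on such readings. Both groups therefore held high and low arrays, and the difference of 0.40 (SE 0.65, interval -1.06 to 1.86, limma adjusted p = 0.798) was smaller than the SD within either group, 1.23 (n = 3) and 0.96 (n = 6). Without marker-positive replicate 2 it turned to -0.25, and without replicate 3 it was 0.97. The arrays high in Dhh were also high in the smooth muscle marker list (correlation 0.94 over 9 arrays with the mean of its 12 genes). This was not particular to that list: basal epithelial genes gave 0.85, fibroblast 0.77, endothelial 0.74, and neural and Schwann cell genes 0.64. Luminal genes gave 0.34, mast cell 0.10, macrophage 0.05 and general leukocyte genes -0.34. These describe arrays that also differ in how many probes were above background, Dhh included. What part other cell types have in the Dhh values was not tested. In such bulk samples, fewer cells of a type and less RNA per cell cannot be told apart.

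Ptch1, the receptor that holds back Smo and is itself a target of the pathway, was higher on every marker-positive than on every marker-negative array, but missed the test. Its 10-spot probe (chr13:61333864-61333923) had log2 ratios of 0.89, 0.34 and 0.84 in marker-positive cells. In marker-negative cells the lowest was -0.05, the median 0.13 and the highest 0.23. The marker-positive array nearest to the other group was replicate 2, and the gap there was small beside the spread among the 3 arrays. Ptch1 was the 1 gene of 6 whose groups did not overlap with marker-positive above, where 5.04% of all tested genes lay so and 6.46% lay the opposite way. The difference was 0.58 (SE 0.17, interval 0.20 to 0.95, limma adjusted p = 0.0981), a fold of 1.49.

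The Ptch1 probe is dim, and the size of its difference moved with the treatment of the signals. Cy5 intensities, with the added offset of 50, were 290, 183 and 132 on the marker-positive arrays and 107 to 181 on the marker-negative ones, of which 3 were above background. A smaller offset of 16 gave 0.81, and the scanner software's processed signals, with median centring in place of loess, gave 1.55 (limma adjusted p = 0.0890). Without marker-positive replicate 3 the difference was 0.50 (adjusted p = 0.145). Within slide 1 (replicate 1 of each group) the difference was 0.68. Within slide 2 (marker-positive replicate 2 against marker-negative replicates 2 and 4) it was 0.24. These values have no test. A second Ptch1 probe (chr13:61331255-61331314) was above background on no array. The authors' deposited table lists the 10 spots of the first probe separately, with differences of 0.41 to 0.74 and adjusted p from 0.0508 to 0.235. The mast cell marker list, whose members include Kit, was also higher on every marker-positive array, with a mean log2 ratio of 3.46 to 4.001 against 0.22 to 2.68. The macrophage list had 3.65 to 4.63 against 0.38 to 3.05. Both were above background in part on every array, with 5 to 9 of 9 and 9 to 12 of 12 genes. Their part in the Ptch1 values was not tested.

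Smo, the transducer that Ptch1 restrains, was higher on 2 of the 3 marker-positive arrays than on any marker-negative array. Its brightest probe (chr6:29693371-29693430) was above background on all 9 arrays. Log2 ratios in marker-positive cells were -2.03 for replicate 1, -1.58 for replicate 2 and -3.76 for replicate 3. The marker-negative arrays ran from -3.85 to -3.08 with a median of -3.55, so replicate 3 lay among them and the groups overlapped. Over all arrays the difference was 1.07 (SE 0.45, interval 0.05 to 2.09, limma adjusted p = 0.238), a fold of 2.09.

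Without marker-positive replicate 3 the Smo difference was 1.72 (SE 0.31, limma adjusted p = 0.0172) and passed, while it was 0.85 without replicate 1 (adjusted p = 0.543) and 0.63 without replicate 2 (adjusted p = 0.618). Within slide 1 it was 1.23 and within slide 2 it was 2.26, and neither slide holds marker-positive replicate 3. The probe at chr6:29687728-29688961, whose listed span of 1234 bases is longer than the 60 bases of the others, gave 0.23 over all arrays (adjusted p = 0.605) and 0.33 without replicate 3 (adjusted p = 0.406). The remaining Smo probe (chr6:29670061-29670120) was above background on no array. The mean of both tested probes differed by 0.65. The rise of Smo in the arrays without replicate 3 was thus seen with 1 of its probes.

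Among the transcription factors, Gli1, whose own transcription is a common readout of pathway activity, did not pass the test. Its 10-spot probe (chr10:126832331-126832390) was above background on all 9 arrays. It gave 0.32, 0.32 and 0.69 in marker-positive cells, and 0.39 to 0.66 with a median of 0.46 in marker-negative cells. Marker-positive arrays were both the lowest and the highest of the 9. The difference was -0.04 (SE 0.16, limma adjusted p = 0.937), and its 95% interval of -0.39 to 0.32 bounds the change in either direction on this scale, where the offset pulls ratios of dim probes toward 0. Intensities of the probe in Cy5 were 128 to 295, offset included.

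Gli2, the main activator of the family, was above background in marker-positive cells only, on 2 arrays with 1 probe and on 1 array with the other. The first (chr1:118695197-118695256) gave -0.68, -1.22 and -0.93 in marker-positive cells against -2.42 to -1.10 with a median of -1.82. Marker-negative replicate 3 overlapped with the marker-positive arrays. The mean Cy5 reading was 1.76-fold the marker-negative background with this probe, replicate 3 not being above background. It was 1.32-fold with the second (chr1:118696781-118696840), which was above background on marker-positive replicate 3 alone, so neither ratio is a lower bound. Without the detection filter, the first probe differed by 0.91 (limma adjusted p = 0.216). With marker-positive replicate 3 also left out, its difference was 0.90 and its ratio to the background 1.77-fold. The second probe was above background on none of the remaining arrays and differed by 0.03.

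Gli3, known mainly as the repressor of the family, gave the largest difference of the 6 tested genes, with 1 of its 2 probes. That probe (chr13:15096631-15096690, listed for the cDNA clone AK048009) had log2 ratios of 0.14, 0.35 and -2.13 on marker-positive replicates 1, 2 and 3 in turn. The marker-negative arrays ran from -3.69 to -1.80 with a median of -2.75. As with Smo, replicates 1 and 2 lay above all marker-negative arrays and replicate 3 among them. Marker-positive replicates 1 and 2 were above background with this probe, as were marker-negative replicates 1, 2 and 4. The difference was 2.19 (SE 0.61, interval 0.81 to 3.57, limma adjusted p = 0.0944), and without marker-positive replicate 3 it was 2.98 (SE 0.50, adjusted p = 0.0158), a call. It was 1.84 without replicate 1 (adjusted p = 0.315) and 1.74 without replicate 2 (adjusted p = 0.306).

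The other Gli3 probe (chr13:15093858-15093917, listed for NM_008130) went the other way. It stands in 10 spots and was above background on all 9 arrays, with 0.25, 0.13 and 0.48 in marker-positive cells against 0.38 to 0.69 in marker-negative cells. Its difference was -0.25 (SE 0.15, limma adjusted p = 0.417), and -0.34 without marker-positive replicate 3 (adjusted p = 0.224). It is dim, with Cy5 intensities of 109 to 194 where the first probe reached 2815 on marker-positive replicate 2. The mean of both probes differed by 0.97 (adjusted p = 0.135). Exons and untranslated regions of build mm7 were not used here, so which transcripts each probe reads is not given. Gli3 was therefore higher by 1 probe on 2 arrays, and the gene as a whole has no settled direction.

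Hhip, a membrane protein that binds Hedgehog ligands and dampens the pathway, was above background on 2 of the 9 arrays, marker-positive replicates 1 and 2. Its probe (chr8:78511903-78511962) gave log2 ratios of 1.75, 2.58 and 0.32 in marker-positive cells. The marker-negative arrays ran from -0.01 to 0.20 with a median of 0.09. Cy5 intensities were 333, 670 and 97.8 in the same order, where the marker-negative arrays had 84 to 105, offset included. Replicate 3 thus lay within the background of the other group in Cy5, although its ratio was higher. In Cy5 alone, the mean reading in marker-positive cells was 2.82-fold the marker-negative background, with replicate 3 not above background. Without replicate 3 it was 3.93-fold, a lower bound of the readings only. The gene was not in the test. Without the detection filter the difference of its log2 ratios, which set Cy5 against the reference channel, was 1.46 (limma adjusted p = 0.120), and 2.08 (SE 0.23, adjusted p = 0.00386) with replicate 3 also left out, a setting chosen after seeing the data in which 3.22% of all genes were called higher and 1.37% lower. A second Hhip probe (chr8:78506418-78506477) was above background on no array. The authors' deposited table gives 1.45 for the first probe (adjusted p = 0.121).

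**Figure D2:**
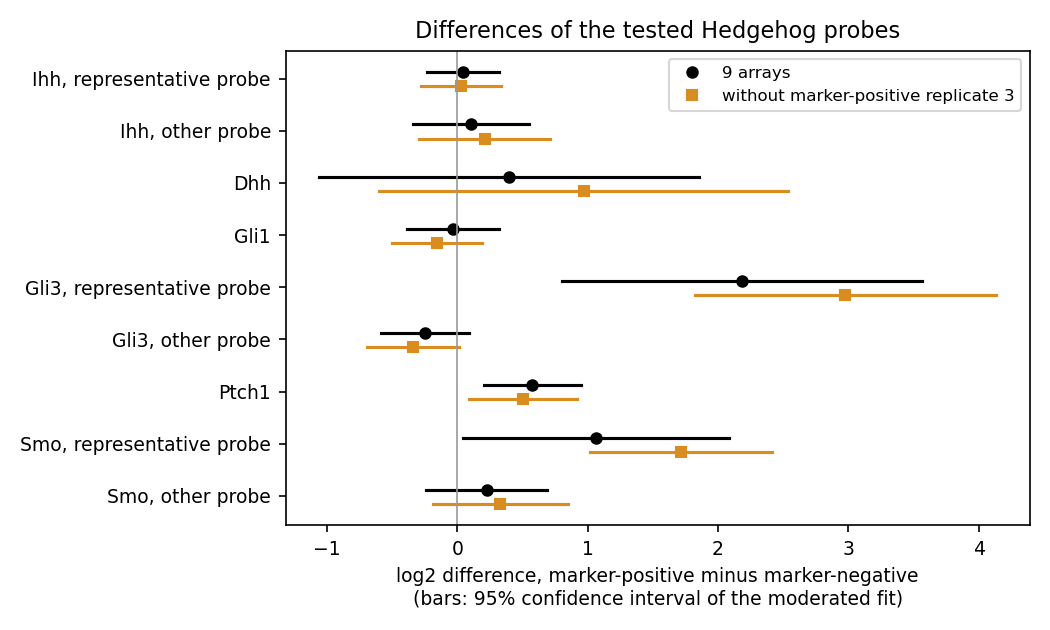
Log2 differences, marker-positive minus marker-negative, of the 9 tested probes of the 6 tested genes, over all 9 arrays (black) and without marker-positive replicate 3 (orange), with 95% confidence intervals of limma's moderated fit. The brightest Gli3 and Smo probes move from 2.19 to 2.98 and from 1.07 to 1.72, while the other Gli3 probe stays below 0 and the intervals of Ihh, Dhh and Gli1 include 0.

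With marker-positive replicate 3 left out, 2 of the 6 genes were called, both higher, where 4.34% of all tested genes were called higher and 2.09% lower. With array weights, which gave replicate 3 a weight of 0.24 and replicate 1 a weight of 2.73, 3 were called higher, Gli3 (2.82), Smo (1.62) and Ptch1 (0.50, limma adjusted p = 0.0473), where 10.7% of all tested genes were called higher and 10.6% lower. On the 7 arrays with more than 50% of probes above background, which leaves 2 against 5, Gli3 (3.11) and Smo (1.80) were called higher, where 4.41% of all tested genes were called higher and 2.31% lower. Leaving out any of the other 8 arrays gave 0 calls among the 6 genes.

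Gli3 and Smo, through their brightest probes, followed each other over the arrays, with a correlation of 0.95 over 9 arrays. The other pairs of the 6 genes lay between -0.62 (Dhh and Gli1) and 0.57 (Dhh and Smo). The 9 arrays share the reference and differ in the share of probes above background. For genes above background on all 9 arrays, the 3 others with the most similar pattern were taken from 12392. For Smo these were Efna5, an ephrin ligand (0.98), Lynx1, a modulator of nicotinic receptors (0.98), and Bicc1, an RNA-binding protein (0.97). For Gli1 they were Adam26a (0.98), Fzd8, a Wnt receptor (0.97), and Trav3-3, a T cell receptor segment (0.97).

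Fibroblast and endothelial markers were high on the arrays where Gli3, Smo and Hhip were high. The mean log2 ratio of 14 fibroblast genes was 1.62, 1.47 and -2.78 on the marker-positive arrays and -2.95 to -0.49 on the marker-negative ones, with 14, 14 and 7 of the 14 genes above background on the former and 8 to 14 on the latter. For 14 endothelial genes the means were 3.16, 4.68 and 0.60 against 0.25 to 1.58, with 14, 14 and 9 genes above background against 9 to 14. Gli3 correlated with the fibroblast mean at 0.83 and with the endothelial mean at 0.92 over the 9 arrays, and Smo at 0.88 and 0.95. This was not particular to these lists. Basal epithelial genes gave 0.71 with Gli3 and 0.79 with Smo, smooth muscle 0.71 and 0.73, and mast cell 0.76 and 0.65. Macrophage genes gave 0.63 and 0.47, luminal -0.21 and 0.01, neural -0.02 and -0.10, and general leukocyte genes 0.08 and -0.10. Among the fibroblast genes 0 of 14 passed the test (limma; 3 at an unadjusted p under 0.05), led by the microfibril gene Fbn1 (3.07, adjusted p = 0.0818), Pdgfra (2.45), the transcription factor Tcf21 (2.58) and Mfap5 (2.52). Of the endothelial genes 2 of 14 were higher, the von Willebrand factor gene Vwf (3.99, adjusted p = 0.0112) and Ly6c1 (3.62, adjusted p = 0.0281), while Tek (0.81) and Eng (1.72) did not pass. Over all tested genes 1.4% were called higher and 19.1% had an unadjusted p under 0.05. The part of the listed cell types in the values of Gli3, Smo and Hhip was not tested.

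Of the other lists, basal epithelial genes were likewise higher on marker-positive replicates 1 and 2 than on any marker-negative array, with means of 1.84, 2.60 and -0.38 against -0.33 to 1.47. Of these 0 of 14 passed (4 at an unadjusted p under 0.05), with Trp63 (1.94, limma adjusted p = 0.0589), Egfr (1.99), Krt14 (1.63) and Col17a1 (2.22) leading. Over all tested genes 19.1% had such an unadjusted p, 1.4% were called higher and 1.43% lower. For luminal, neural and general leukocyte genes marker-positive replicates 1 and 2 lay within the marker-negative range, as did replicate 1 for smooth muscle genes. Luminal epithelial genes had means of 2.53, 2.59 and -0.05 against 2.44 to 4.14, and 1 of 15, the transcription factor Ehf, was lower (-2.33, adjusted p = 0.0329), ahead of Spdef (-3.04) and Hoxb13 (-3.39). Smooth muscle genes had means of -0.15, 0.66 and -1.42 against -1.98 to 0.13, with 0 of 12 called (1 at an unadjusted p under 0.05) and Des (1.08), Actg2 (0.43), Rgs5 (0.48) and Smtn (0.64) at the smallest p. Neural and Schwann cell genes, relevant to Dhh, had means of 1.45 to 1.65 against 1.01 to 2.22, with 0 of 9 called (1 unadjusted) and Egr2 (1.18), Erbb3 (-0.98) and Mbp (0.65) among those with the smallest p. General leukocyte genes had means of 0.76 to 2.82 against -1.07 to 2.48, with 0 of 10 called (1 unadjusted), led by Laptm5 (1.92), Was (1.05), Cd53 (1.15) and Cd48 (1.41). Of the mast cell genes 3 of 9 were higher, Tpsb2 (2.47), Fcer1a (3.79) and Cpa3 (5.75), and of the macrophage genes 4 of 12, Cd163, Mrc1, Itgam (1.01) and Lyz2 (4.87). Cd163 and Mrc1 were above background on no marker-negative array, so they entered the test only through the marker-positive arrays. Their calls therefore lend no support, and their mean Cy5 readings were 101-fold and 50.8-fold the marker-negative background. Without marker-positive replicate 3 the calls were 5 of 14 fibroblast, 9 of 14 endothelial, 3 of 14 basal, 1 of 12 smooth muscle, 4 of 9 mast cell and 3 of 12 macrophage genes, all higher, and 1 of 15 luminal genes, lower. In that setting 4.34% of all tested genes were called higher and 2.09% lower. No neural or leukocyte gene was then called (limma; 0 of either at an unadjusted p under 0.05).

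**Figure D3:**
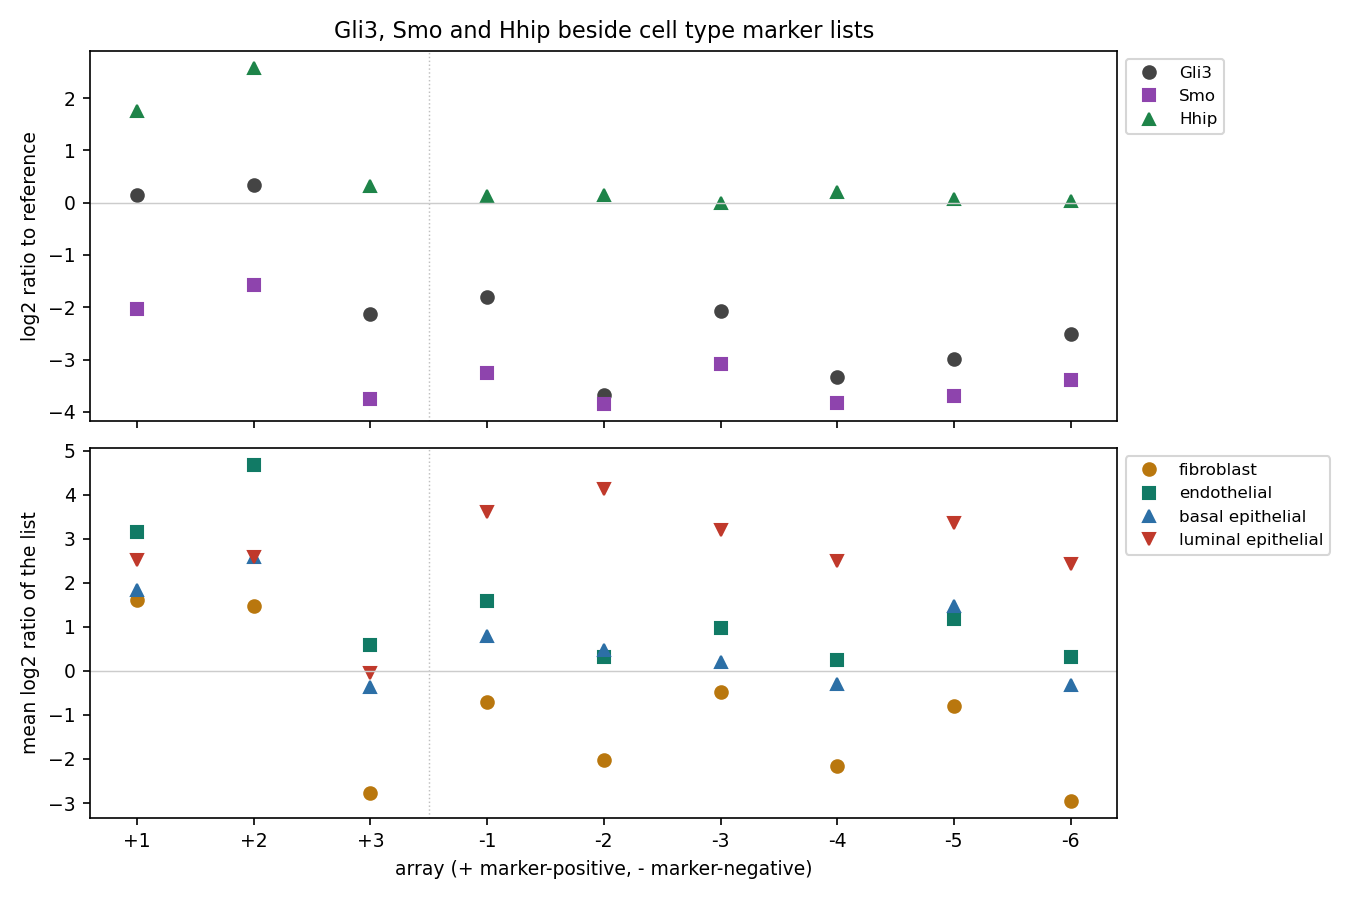
Log2 ratios of Gli3, Smo and Hhip on each array (upper panel; the brightest tested probe, or for Hhip the probe above background) and the mean log2 ratio of 4 cell type marker lists on the same arrays (lower panel). Marker-positive replicates 1 and 2 are highest for the 3 genes and for the fibroblast, endothelial and basal lists, while replicate 3 has a fibroblast mean of -2.78.

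Other genes of the pathway were followed through 5 lists of 107 genes, of which 92 were tested. Of these, 1 was higher, 1 was lower and 20 had an unadjusted p under 0.05 (21.7%, against 19.1% of all tested genes). Their median difference was 0.14. The higher one was Cxcl14, a chemokine listed among reported Hedgehog targets, with 3.27, 3.84 and 2.14 in marker-positive cells against 0.46 to 1.97 with a median of 0.91. All marker-positive arrays lay above all marker-negative ones, and the difference was 2.09 (SE 0.47, limma adjusted p = 0.0494). The lower one was Ift20, a subunit of the transport machinery of the primary cilium, on which Smo and the GLI proteins act, with 0.35, 0.51 and 0.17 against 1.21 to 2.36. Its groups did not overlap either, the difference was -1.58 (SE 0.34, adjusted p = 0.0428), and a second probe gave -1.38 (adjusted p = 0.0826). Both calls lie near the threshold: that of Cxcl14 ended without any 1 array except marker-positive replicate 3, and that of Ift20 without any 1 except marker-negative replicate 4.

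Genes of ligand processing and release held no call among 12 tested (limma; 1 at an unadjusted p under 0.05), with a median difference of -0.15. Those with the smallest p were the heparan sulfate proteoglycans Gpc6 (1.44, adjusted p = 0.0768), Gpc4 (1.02) and Gpc3 (1.53), and the Patched-related Ptchd1 (-1.08). Receptor, co-receptor and Smo-linked genes also held none among 15 (5 unadjusted), with a median of 0.11. Leading were Iqce (-1.24, adjusted p = 0.0705), a cilium protein linked to Smo signalling whose second probe gave -0.16, the arrestin Arrb1 (1.12), Evc (1.25) and the co-receptor Gas1. Gas1 gave 1.64, 2.01 and -2.57 on the marker-positive arrays and -3.09 to -0.77 in marker-negative cells, a difference of 2.35 (adjusted p = 0.239). Replicate 3 thus lay among the marker-negative arrays for this gene too.

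Of the genes that regulate the GLI proteins, 0 of 15 were called (limma; 4 unadjusted), with a median of 0.34. Prkacb, a catalytic subunit of protein kinase A, which phosphorylates GLI proteins, gave 0.84 (adjusted p = 0.107), but its second probe gave -2.20 (adjusted p = 0.0293), so its probes disagree in sign. Btrc, part of the ubiquitin ligase that processes GLI proteins, was above background on 4 marker-negative arrays and on no marker-positive array. It entered the test only through the former. Its mean Cy5 reading in marker-negative cells was 2.08-fold the marker-positive background. The zinc finger gene Glis2 gave 1.83 and Dzip1 0.76. Of 26 genes of cilium structure and transport, Ift20 was the 1 call and 5 had an unadjusted p under 0.05. Next were Tctn2 (1.91, adjusted p = 0.0706) and B9d1 (-0.68), both of the ciliary transition zone, Ift57 (0.69) and Arl13b (1.29), and the list median was -0.04. Among 25 reported target genes, Cxcl14 was the 1 call and 5 had an unadjusted p under 0.05, with a list median of 0.67. Snai1 (1.63), Igfbp3 (3.23), Igfbp6 (1.57) and Ccnd1 (0.67) did not pass, and a second Igfbp3 probe gave -0.11.

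**Figure D4:**
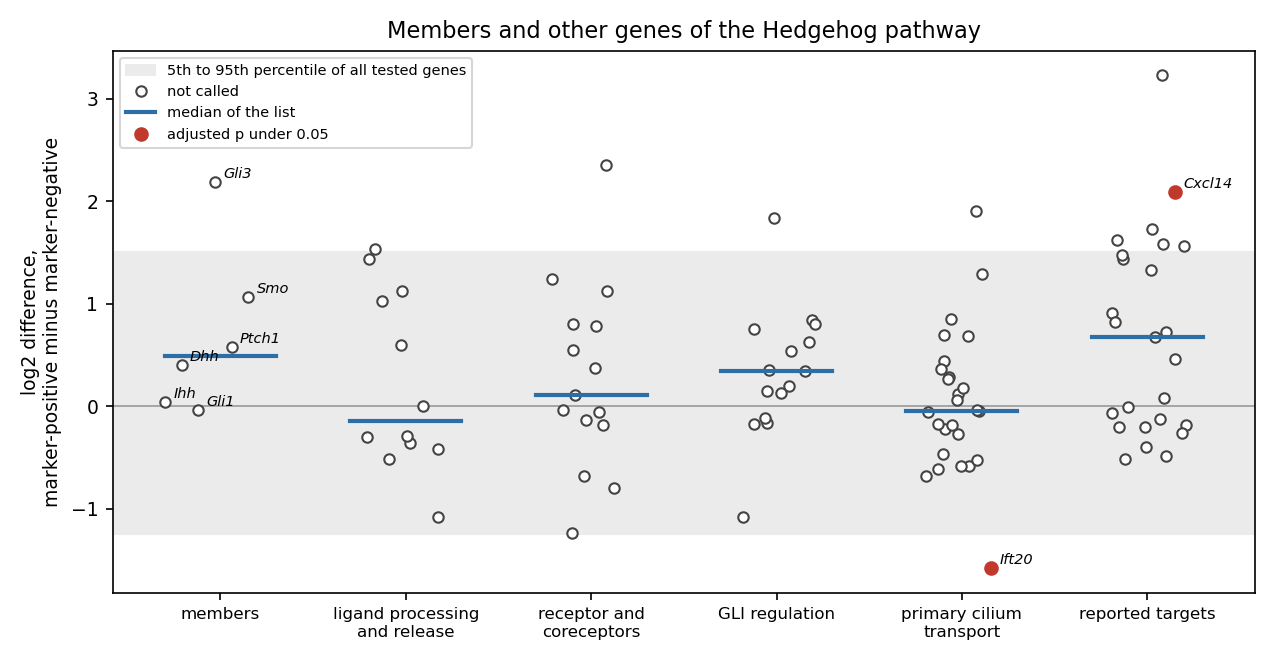
Log2 differences, marker-positive minus marker-negative, of the 6 tested members and of the tested genes of 5 pathway lists, 1 point a gene, with the list median as a blue line and genes with an adjusted p under 0.05 in red. The grey band spans the 5th to the 95th percentile of all tested genes, -1.24 to 1.51, and of the 6 members only Gli3 lies outside it.

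Without marker-positive replicate 3, 6 of the 92 pathway genes were called, all higher, where 4.34% of all tested genes were called higher and 2.09% lower: Gpc3 (2.80), Gpc6 (1.81), Gas1 (3.82), Igfbp6 (2.36), Igfbp3 (4.92) and Cxcl14 (2.56). The groups then hold 2 and 6 arrays. With array weights there were 22 higher and 7 lower calls, where 10.7% of all tested genes were called higher and 10.6% lower, among them Evc (1.52), Evc2 (1.20), Boc (1.10) and Ift20 (-1.60).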

How the data were processed

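Scanner files of 9 Agilent arrays of design 014868 were used. Total RNA, isolated by PicoPure, was amplified before labelling, per the labels' protocols. The deposited intensity values per spot, mean, local background and processed signals with flags, were written by Agilent Feature Extraction (10.7.3.1 per the file headers, 10.7 per the submitters' processing notes). In the authors' deposited table each spot or probe has a log2 difference, a signed fold, a p-value and an adjusted p-value. Its log2 difference runs non-stem minus stem and was turned here. The normalization behind it is not stated there.

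Mean intensities were corrected by normexp with an offset of 50 and normalized by loess within arrays in limma 3.58.1 (R 4.3.3), with control and outlier spots at weight 0, outlier spots missing, and each probe as the mean of its spots. The test took in 28332 of 41174 probes, those above background in the sample channel on 3 or more arrays, standing for 19848 genes, each represented by its brightest tested probe over both channels. Groups were compared with limma (eBayes, trend and robust options, two-sided), with Benjamini-Hochberg adjustment over all tested probes. The procedure was run on simulated data with independent noise. These held no slide effect and no outlying array, so the run does not cover either. Over the 28332 probes the differences correlated at 0.999 with the authors' deposited table. Probe positions are those of the files, build mm7:NCBI35:Aug2005.

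The 9 genes, the gene lists and the tests were chosen with earlier results of these data known. Text names every probe of the 9 genes, all called genes of a pathway list or else the 4 with the smallest adjusted p, and up to 4 of each cell type list; calls listed for settings other than the one reported, and genes named beyond this, were chosen after their values were seen. Some genes that this rule names are not reported here. Arrays lay on 5 slides, of which slides 1 and 2 held both groups. Slide 1 held replicate 1 of each group, and slide 2 held marker-positive replicate 2 with marker-negative replicates 2 and 4. Marker-positive replicate 3 was the only array used here on slide 3, so it cannot be told apart from its slide. The within-slide values and the fit with slide as a fixed block leave this array out of the contrast. They also leave out marker-negative replicates 3, 5 and 6, as slides 4 and 5 held no marker-positive array. The number of arrays limits the precision. Alternatives covered background, normalization, channel, filter, variance model, weights, slide, probe rule and each array left out. Plots were drawn with matplotlib 3.10.9.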

Additional observations from a re-analysis of the deposited data

Results flagged for a closer look

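In 2 of the 16 probes, 1 array of the marker-negative group lay far from the others by Dixon's criterion at 95%, which chance meets in about 1 in 20 groups. For Shh it was replicate 4, with a log2 ratio of 1.11 where the next highest was 0.23, and 50% of its spots were above background. For the 10-spot Ihh probe it was replicate 6, with 0.25 where the next was 0.17.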

How the results depend on the processing

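The labels give no replicate numbers, so those used here follow the order of the arrays within each group of the series. No paired analysis was therefore possible, and slide served as a block instead. The Hedgehog genes had 0 calls (limma; 1 to 5 at an unadjusted p under 0.05) under all alternatives except array weights (3 higher), leaving out marker-positive replicate 3 (2) and the 7 arrays with over 50% of probes above background (2), a setting chosen after seeing the data; their causes were not tested. Leaving out 1 array gave 0 to 2 higher and 0 lower calls among them, 0 to 6 higher and 0 to 1 lower other pathway genes, and 74 to 862 higher and 54 to 414 lower among all genes, lowest without marker-positive replicates 1 (74 and 63) or 2 (91 and 54). Differences then ran from -0.25 to 0.97 for Dhh, -0.16 to 0.0278 for Gli1, 0.63 to 1.72 for Smo and 1.74 to 2.98 for Gli3. Directions also turned for Gli1 with Cy5 alone (0.00613), Gli3 when probes had to be above background in both channels on all arrays (-0.25, its other probe), and within slide 1 for Ihh (-5.05e-05) and Dhh (-0.69). Other pathway genes had 0 calls in either direction with processed signals (16 unadjusted), median centring (15), no detection filter (24) and slide as a fixed block (27). They had 2 higher without background subtraction, 0 lower with the mean of probes, 22 higher and 7 lower with array weights, and 8 higher and 0 lower on the 7 arrays. Over all genes there were 111 higher and 64 lower with median centring, 2123 and 2102 with array weights, and 875 and 458 on the 7 arrays. With slide as a fixed block there were 0 and 0 (limma, trend and robust; 3234 unadjusted; smallest adjusted p 0.0580), but 35 to 120 genes under other variance options, so this count is marginal. Dim probes limit Shh, Gli2, Hhip and a few listed genes to ratios against background, which are bounds only in part.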
